A study of Mus musculus with 847 samples.

Results

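The genes described here are 6 of the 21076 genes in the count table: Cd74, H2-Aa, H2-Ab1, H2-Eb1, H2-DMa and Ciita, which together serve antigen presentation by class II molecules of the major histocompatibility complex (MHC). They were listed by symbol, without use of a measured value, and each was followed across 15 dissected brain regions and 7 ages. The mice were 59 C57BL/6JN animals, an inbred black laboratory strain, and the labels name no transgene, deletion or treatment. Groups held 5 females and 5 males at 3, 12, 15 and 18 months, 5 females and 6 males at 21 months, 5 males at 26 months and 3 males at 28 months, so that every mouse older than 21 months was male. Choroid plexus was present for 57 mice and was set against the other 14 regions, called parenchyma below (brain tissue proper), either singly or as the counts of a mouse summed over its parenchymal libraries. Replicates were separate mice, each giving 1 library per region.

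Class II molecules are heterodimers of an alpha and a beta chain that show peptides from the endosome to CD4+ T cells. Cd74, the invariant chain, escorts new heterodimers to the endosome and blocks their groove. The DM heterodimer, whose alpha chain is H2-DMa, exchanges the remaining Cd74 fragment for peptide, and Ciita is the transactivator that switches on the class II promoters. H2-Aa and H2-Ab1 encode the I-A chains. H2-Eb1 encodes the beta chain of I-E, and C57BL/6 mice carry a deletion in the gene of its alpha partner, so they form no I-E. In healthy brain, class II is known mainly from macrophages and dendritic cells of the borders, including choroid plexus stroma and meninges, and from few microglia. The choroid plexus is a vascular fold in the ventricles that makes cerebrospinal fluid, with a fenestrated capillary bed under an epithelium rich in transthyretin (Ttr).

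Class II promoters carry a conserved X box and Y box at a fixed distance, the platform to which RFX, CREB and NF-Y factors bind and recruit Ciita. These letters are shown for the genes of the family whose promoter window held both. In the RefSeq promoter table (build GRCm38.p6, 250 bases before to 50 after each gene's start), 3 of the 6 genes had an entry, namely H2-Aa, H2-Eb1 and H2-DMa; Cd74, H2-Ab1 and Ciita had none. Each sequence runs 5′ to 3′ on the gene's strand with 20 flanking bases, and capitals mark GCAAC, the 5′ part of the X box, and CTGATTGG, which holds the inverted CCAAT of the Y box.
H2-Aa, minus strand, chr17:34287847-34287924: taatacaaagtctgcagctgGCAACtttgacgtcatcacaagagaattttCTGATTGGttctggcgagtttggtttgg
H2-Eb1, plus strand, chr17:34305756-34305832: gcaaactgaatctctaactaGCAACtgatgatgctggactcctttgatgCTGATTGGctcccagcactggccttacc
H2-Oa, plus strand, chr17:34092283-34092360: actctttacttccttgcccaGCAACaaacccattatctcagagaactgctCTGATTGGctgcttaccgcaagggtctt
H2-Eb2, plus strand, chr17:34325523-34325599: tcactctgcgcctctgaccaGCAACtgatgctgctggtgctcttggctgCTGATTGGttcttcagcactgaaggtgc

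The GCAAC began 81 bases before the start of H2-Aa, 91 before H2-Eb1, 76 before H2-Oa and 132 before H2-Eb2, and 25, 24, 25 and 24 bases separated it from CTGATTGG. These letters were chosen from the textbook boxes after reading the windows. Searched on both strands of 32851 promoter windows, CTGATTGG was in 1346 (4.10%) and GCAAC in 11566 (35.2%), while the pair with 24 or 25 bases between was in 5 (0.0152%). The 5 were the 4 genes above and Stard7. The CRE letters TGACGTCA, which overlap the X box region of H2-Aa, were in 588 windows (1.79%). The windows of H2-DMa, H2-DMb1, H2-DMb2 and H2-Ob did not hold the pair in these letters. A match in letters is a description of the window and not a measured binding site.

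By the GENCODE annotation of GRCm38, H2-DMa, H2-Ab1, H2-Aa and H2-Eb1 lie in the MHC on chromosome 17, at chr17:34119541-34139101 (plus strand), chr17:34257689-34269419 (plus), chr17:34282744-34287823 (minus) and chr17:34305867-34316674 (plus). Ciita lies at chr16:10480059-10528418 on the plus strand and Cd74 on the plus strand of chromosome 18. Libraries were unstranded, so where exons on opposite strands overlap, strand cannot assign a read to either gene. Whether the counting mixed or left out such reads is not given in the sources used here. Exons of H2-DMa share 360 bases (10.4% of its exonic length) with Brd2, a chromatin reader on the other strand, and exons of Ciita share 329 bases (3.45%) with Dexi. The age slope of Brd2 lay between -0.0014 and 0.0045 log2 per month in the 15 regions and did not pass the test in any (adjusted p from 0.0623 to 0.973). Median Brd2 ran from 100 CPM in medulla to 181 in olfactory bulb. In choroid plexus it was 122 CPM, where H2-DMa had 17.9. The part of Brd2 reads in the H2-DMa counts was not tested.

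Libraries held between 481444 and 26756735 reads (median 6716030), and 10 of 847 held fewer than 1e+06. Those of choroid plexus held 1104224 to 21372652 (median 7957000), and the parenchymal sums 50369218 to 160832201. The choroid plexus label was checked against its epithelial markers (Ttr, Folr1, Kl, Aqp1, Kcnj13, Otx2, Clic6, Kcne2), whose summed level had a median of 6071 counts per 1e+06 reads of the library (CPM) in choroid plexus, range 579 to 12355, against medians of 5.17 to 520 in the other regions. The ranges overlapped: single libraries reached 18642 CPM in corpus callosum, 9202 in subventricular zone and 4475 in anterior hippocampus, so these markers separate the regions by median and not library by library. Neuron markers were as high in choroid plexus libraries (median 5571 CPM) as elsewhere (medians 3496 to 9458), so these libraries also held neuronal RNA. In a comparison of each library with the median profile of each region by correlation across 14180 genes, 18 of 847 were closest to another region than their label. The 3 farthest were an entorhinal library of mouse 52 (closest to medulla, r = 0.976, own region 0.902), an anterior hippocampal library of mouse 5 (closest to choroid plexus, r = 0.985, own 0.965) and the choroid plexus library of mouse 3 (closest to entorhinal cortex, r = 0.984, own 0.975). The last was the only such library of choroid plexus. Results that rest on these 3 are given with and without them.

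The class II chains and their invariant chain had their highest medians in choroid plexus and in 4 parenchymal regions with similar ones. Median Cd74 was 20.6 CPM in choroid plexus (range 4.13 to 111, SD 17.7, n = 57), 17.6 in pons (2.92 to 87.6, SD 16.2, n = 51), 17.5 in olfactory bulb (8.76 to 159, SD 19.9, n = 58), 15.5 in entorhinal cortex (4.67 to 146, SD 23.0, n = 51) and 15.3 in visual cortex (3.29 to 71.2, SD 10.3, n = 56). Below them came medulla at 8.01, motor cortex at 6.93, subventricular zone at 5.65, corpus callosum at 4.80, hypothalamus at 4.43, cerebellum at 4.19, anterior hippocampus at 3.13, thalamus at 3.12 and caudate putamen at 2.83. Posterior hippocampus was lowest, with a median of 1.82 CPM and no Cd74 read in 5 of 58 libraries; a count of 0 allows up to 1.81 CPM in the shallowest library there, for counting error only. Every region's range overlapped that of the next, and no step between neighbours in this order exceeded the larger of their SDs (largest 0.703 SD). Because these are bulk samples, more cells of a type and more RNA per cell cannot be told apart.

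The 3 classical chains followed nearly the same order. H2-Aa had medians of 8.85 CPM in olfactory bulb, 8.83 in choroid plexus, 8.63 in pons, 7.16 in entorhinal cortex and 5.78 in visual cortex, down to 0.435 in posterior hippocampus. H2-Ab1 was highest in pons at 14.7 CPM, followed by choroid plexus at 10.7, olfactory bulb at 10.3 and entorhinal cortex at 8.37. H2-Eb1 had medians of 5.87 CPM in choroid plexus, 5.67 in pons and 5.29 in olfactory bulb, and 0.881 in posterior hippocampus. No neighbouring pair in any of these orders was separated by more than its larger SD. Markers of other cell types also differed between regions, and their part in these levels was not tested. Leptomeningeal fibroblast markers (Dcn, Lum, Col1a1, Col1a2, Slc6a13, Igf2) had a summed median of 363 CPM in entorhinal cortex, 170 in olfactory bulb, 166 in choroid plexus, 112 in pons and 84.9 in visual cortex. The same sum was 85.9 CPM in posterior hippocampus, the region lowest in Cd74, 77.2 in anterior hippocampus and 22.9 to 64.9 in the others. The entorhinal sum was mostly Dcn, with a median of 271 CPM there and 48.8 in olfactory bulb. Each of the other leptomeningeal markers had a lower median in entorhinal cortex than in olfactory bulb. B cell markers had a summed median of 7.19 CPM in pons and of 0.779 to 1.90 in the other regions.

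H2-DMa and Ciita did not share that order. H2-DMa was highest in caudate putamen at 32.8 CPM, then entorhinal cortex at 27.0, corpus callosum at 23.6 and posterior hippocampus at 23.2, where the classical chains were lowest. Choroid plexus was 7th with 17.9 CPM, and cerebellum was last with 9.03. Of 14 steps between neighbours, 3 exceeded the larger SD for H2-DMa, the largest (1.27 SD) lying just below visual cortex. Ciita medians ran from 3.63 CPM in olfactory bulb to 1.41 in medulla, with 1.87 in choroid plexus at rank 8. Set per kilobase of exon, the choroid plexus medians were 12.3 CPM for Cd74, 5.20 for H2-DMa, 4.15 for H2-Ab1, 3.02 for H2-Eb1, 2.32 for H2-Aa and 0.196 for Ciita.

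**Figure D1:**
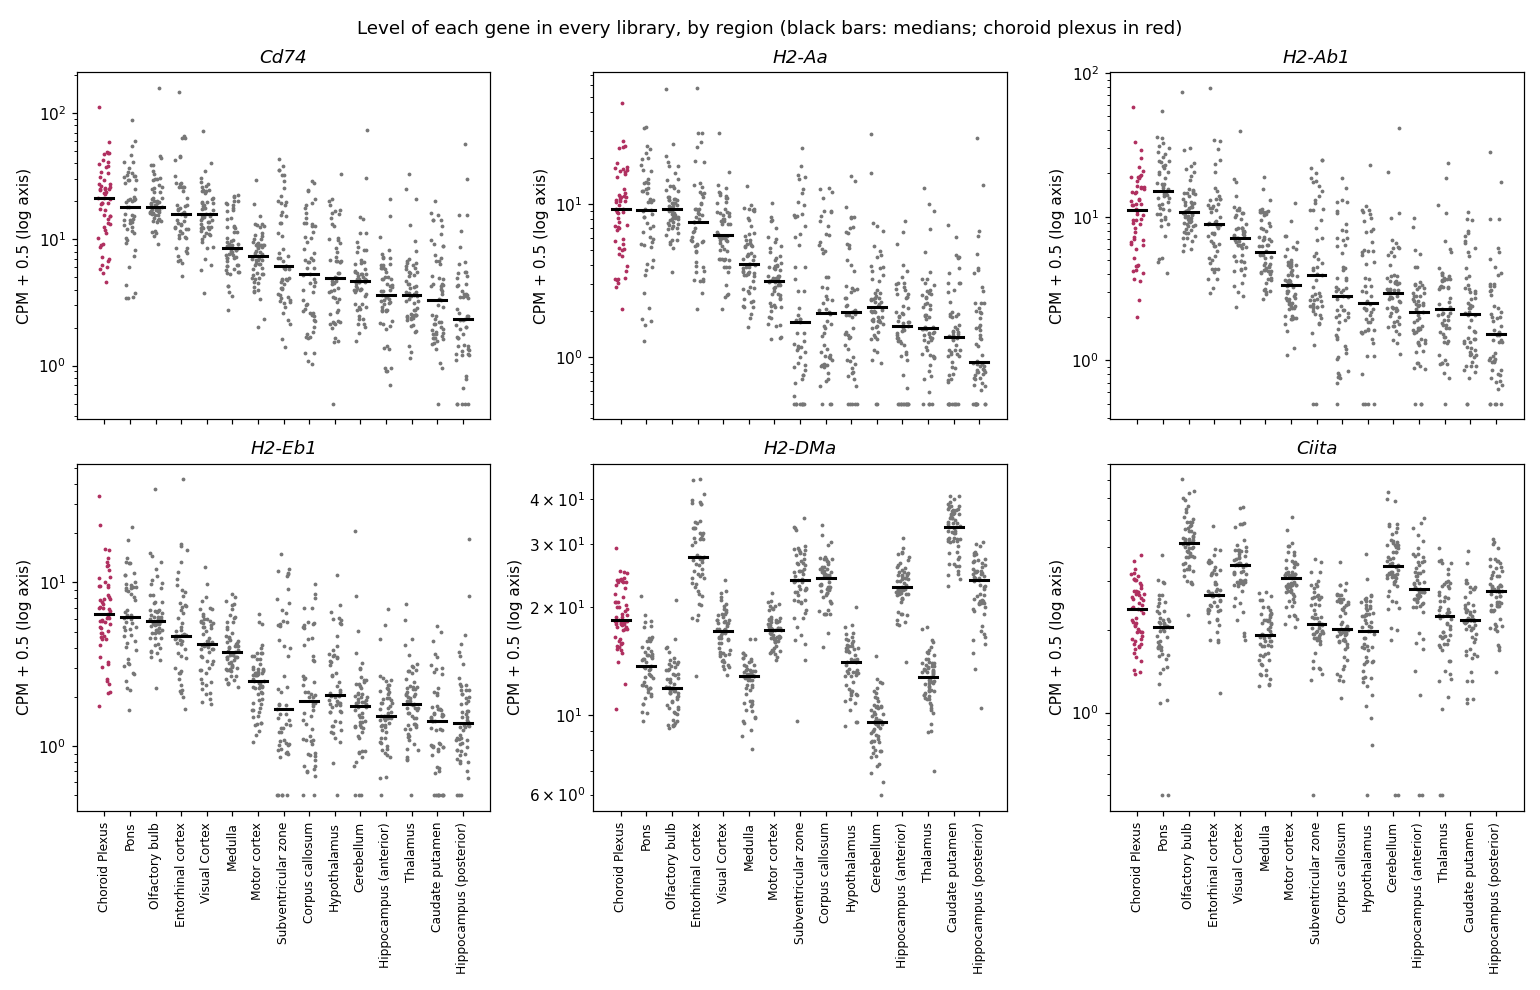
CPM of each gene (log axis, 0.5 added) in every library, by region, with regions ordered by their Cd74 median, black bars for medians and choroid plexus in red. Cd74 and the classical chains fall from choroid plexus, pons and olfactory bulb (medians 20.6, 17.6 and 17.5 CPM for Cd74) to posterior hippocampus, while H2-DMa and Ciita follow other orders.

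Set against the parenchymal sum of the same mice, choroid plexus had more of the classical genes (the 3 chains and Cd74). Medians in choroid plexus and in the sum were 20.6 and 10.1 CPM for Cd74, 8.83 and 4.48 for H2-Aa, 10.7 and 5.93 for H2-Ab1, and 5.87 and 3.14 for H2-Eb1. Choroid plexus was higher in 45 of 57 mice for Cd74 and for H2-Ab1 and in 48 for H2-Aa and for H2-Eb1, so the groups overlapped. The log2 differences at the centre age of 15 months were 1.01 for Cd74 (SE 0.11, adjusted p = 1.55e-14), 1.10 for H2-Aa (SE 0.12, adjusted p = 1.54e-15), 0.85 for H2-Ab1 (SE 0.11, adjusted p = 4.66e-11) and 1.07 for H2-Eb1 (SE 0.11, adjusted p = 1.94e-16). These are 4 of 6 genes, where 35.2% of all genes tested were higher in choroid plexus and 40.6% lower, so a call in itself is common in this comparison. H2-DMa did not pass (17.9 and 18.3 CPM, log2 difference 0.08, SE 0.038, adjusted p = 0.0556). Ciita was lower in choroid plexus (1.87 and 2.14 CPM, log2 difference -0.16, SE 0.052, adjusted p = 0.00656), a call that was lost with library total and genes detected as covariates (adjusted p = 0.749).

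The comparison by single region shows where that difference lies. Cd74 was higher in choroid plexus than in anterior hippocampus in 55 of 55 mice, thalamus in 55 of 57, motor cortex in 54 of 57, cerebellum in 54 of 56 and caudate putamen in 53 of 56. Against olfactory bulb it was higher in 28 of 56 mice, against pons in 29 of 50, against entorhinal cortex in 30 of 50 and against visual cortex in 31 of 54, which is close to an even split. H2-Ab1 was higher in choroid plexus than in pons in 13 of 50 mice only. Without mouse 3, the log2 differences from the sum were 1.03 for Cd74 and 1.12 for H2-Aa.

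**Figure D2:**
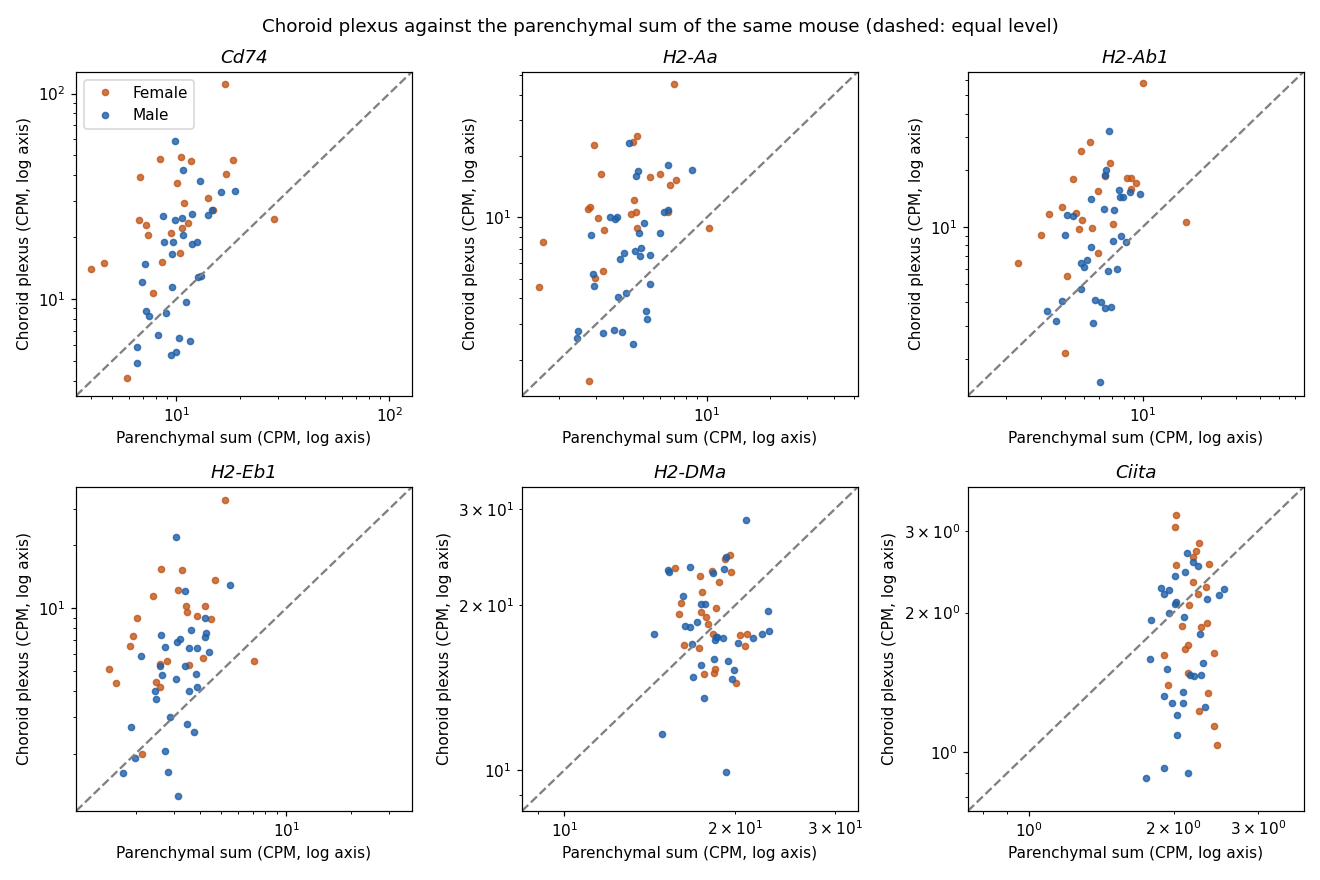
CPM in choroid plexus against CPM in the parenchymal sum for each of the 57 mice (log axes), coloured by sex, with a dashed line of equality. Points for Cd74 and the classical chains lie mostly above the line (45 of 57 mice for Cd74), and those of H2-DMa lie around it (30 of 57).

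With age, Cd74 and the classical chains rose in choroid plexus while H2-DMa and Ciita showed no detectable slope. Cd74 had a lowest, median and highest value of 4.13, 6.04 and 23.4 CPM at 3 months (n = 10), 6.48, 9.73 and 22.8 at 12 months (n = 8), 11.5, 23.3 and 42.3 at 15 months (n = 10) and 8.58, 19.9 and 111 at 18 months (n = 10). It had 20.6, 26.0 and 59.0 at 21 months (n = 11). The 5 mice of 26 months gave 12.9, 18.9, 19.0, 27.0 and 33.7 CPM, and the 3 of 28 months 24.2, 33.1 and 37.4. Most libraries of 3 months lay below all those of 21 months, and the highest reached into their range, while those of 28 months all lay above the 3-month range. The rise was 0.10 log2 per month (SE 0.013, edgeR quasi-likelihood test, adjusted p = 1.3e-08, n = 57), which over 25 months amounts to 5.78-fold.

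The chains moved alike. H2-Aa went from 1.57, 2.96 and 10.6 CPM (lowest, median, highest) at 3 months to 6.86, 10.9 and 25.2 at 21 months, H2-Ab1 from 1.5, 3.68 and 10.4 to 10.7, 15.9 and 32.5, and H2-Eb1 from 1.25, 2.30 and 5.73 to 5.55, 7.41 and 21.9. The H2-Ab1 values of the 2 ages did not overlap, whereas those of H2-Aa and H2-Eb1 overlapped at their edges. Slopes were 0.093 log2 per month for H2-Aa (SE 0.013, adjusted p = 1.56e-07), 0.096 for H2-Ab1 (SE 0.013, adjusted p = 7.64e-08) and 0.091 for H2-Eb1 (SE 0.013, adjusted p = 1.62e-07). Thus 4 of the 6 genes rose in choroid plexus, where 11.1% of all genes tested rose. H2-DMa stayed near its 3-month level (11.7, 18.8 and 23.4 CPM at 3 months and 15.0, 17.9 and 24.5 at 21 months, slope -0.00085, SE 0.0049, adjusted p = 0.939). Ciita had 1.14, 1.94 and 2.40 CPM at 3 months and 1.20, 1.90 and 2.72 at 21 months (slope -0.0041, SE 0.0077, adjusted p = 0.827). Ages overlapped throughout for these genes.

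**Figure D3:**
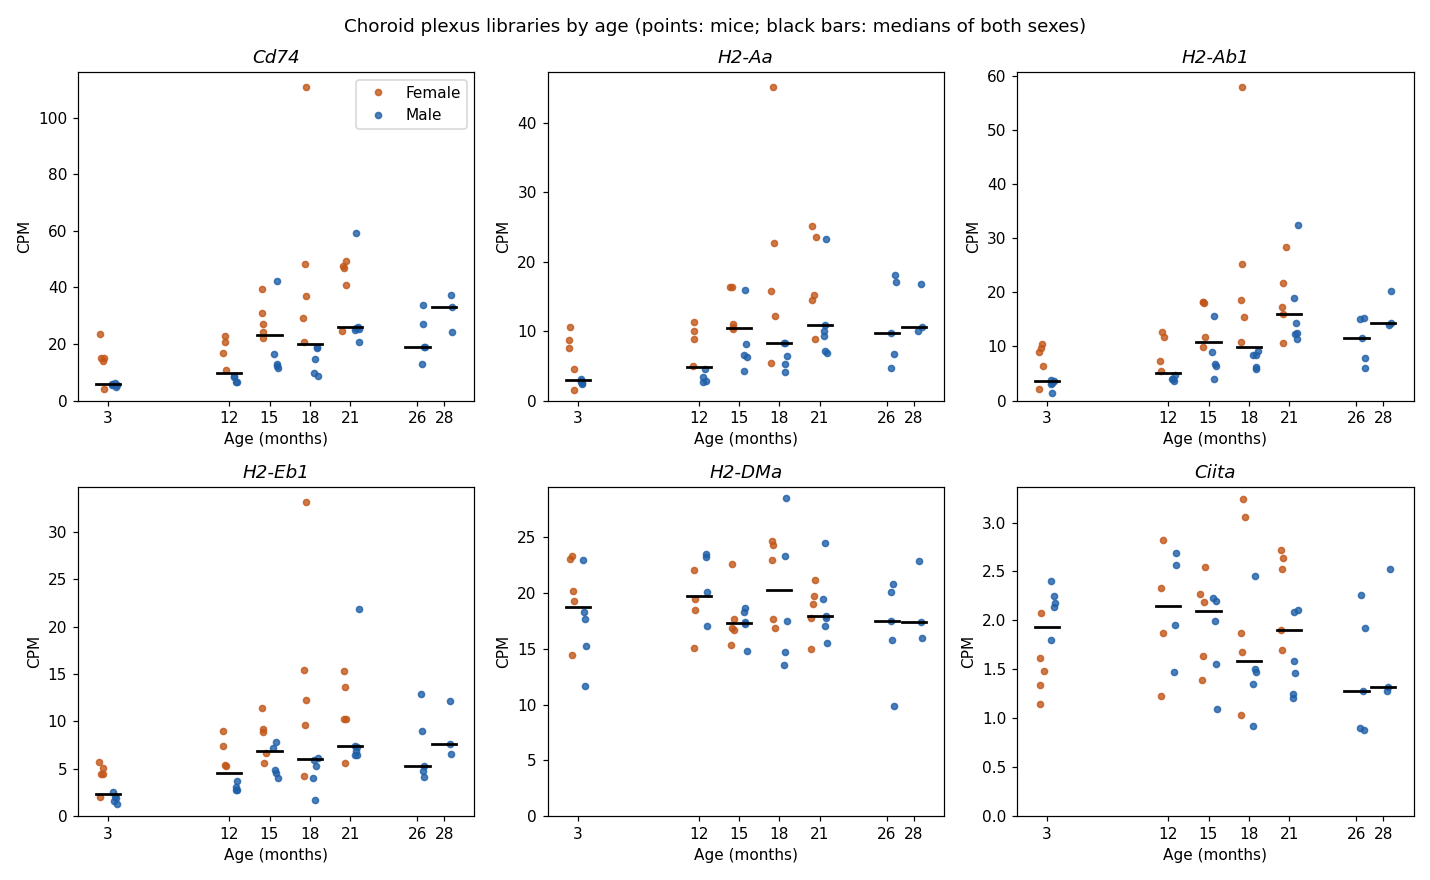
CPM in each choroid plexus library against age in months for the 6 genes, females in orange and males in blue, with black bars for the median of both sexes. Cd74 and the classical chains are higher at 15 than at 12 months (Cd74 medians 23.3 and 9.73 CPM), and at 12 months females lie above males. The step between these ages was not tested, and their mice are numbered 18 to 54 and 1 to 15. H2-DMa stays between medians of 17.3 and 20.3 CPM.

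Each later age was also set against 3 months, with the 3-month libraries shared by all 6 contrasts. At 12 months no class II gene differed (Cd74 log2 difference 0.31, SE 0.30, adjusted p = 0.825), against 0.00683% of all genes called higher, and 0 had an unadjusted p under 0.05 with edgeR or passed with DESeq2. At 15 months Cd74 was higher by 1.31 (SE 0.28, adjusted p = 0.0103), H2-Aa by 1.24 (adjusted p = 0.0282) and H2-Ab1 by 1.14 (adjusted p = 0.0372), where 0.423% of genes were. H2-Eb1 missed the threshold there, with 1.13 (adjusted p = 0.0516). From 18 months on, all 4 classical genes were higher at each age, and the shares of all genes called higher were 1.75% at 18 months, 10.8% at 21, 2.01% at 26 and 2.86% at 28. The Cd74 differences were 1.65 (SE 0.27, adjusted p = 5.96e-05) at 18 months, 2.00 (SE 0.27, adjusted p = 2.84e-07) at 21, 1.78 (SE 0.34, adjusted p = 0.000509) at 26 and 2.30 (SE 0.38, adjusted p = 3.84e-05) at 28. In all, 19 of 36 contrasts of a member with 3 months passed. In mice 16 to 56 alone, which leaves out the 12-, 26- and 28-month groups, 10 of 18 did, where 11 of the same 18 passed with all mice.

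Several cell type markers moved beside this rise, and their part in it was not tested beyond the fits given here. Between 3 and 21 months the summed medians in choroid plexus went from 5202 to 7463 CPM for epithelial markers (0 of 8 passed with edgeR, with DESeq2 or at an unadjusted p under 0.05), from 306 to 420 for microglial markers (7 of 8 rose), from 11.4 to 14.3 for border macrophage markers (Ms4a7 alone of 6 tested rose) and from 0.541 to 2.43 for B cell markers (Cd22 was the only member tested, and it rose). T cell markers went from 3.48 to 5.17 CPM, and 2 of 3 tested rose. Leptomeningeal markers went from 162 to 155 CPM, and Col1a1 alone of 6 fell. Cd79a, a component of the B cell receptor, had no read in 22 of 57 choroid plexus libraries. With the epithelial markers as a covariate the Cd74 slope was 0.097 (adjusted p = 1.11e-09), with the neuron markers 0.098, and with the leptomeningeal markers 0.11 (adjusted p = 2.15e-10). Without mouse 3 it was 0.10, and without mouse 39, whose 111 CPM at 18 months was the highest value of choroid plexus, it was 0.096.

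The parenchymal regions were fitted singly. Over the 14 regions, 24 of 84 pairs of gene and region rose and none fell, where 5.48% of all pairs tested rose. In cerebellum, motor and visual cortex and hippocampus the called genes were mainly the classical ones, and in pons, medulla, hypothalamus and corpus callosum H2-DMa was the gene called. In males alone 14 pairs rose (3.58% of all pairs tested), and without the library highest in Cd74 of each region 23 did (5.38%).

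Cerebellum had 5 of 6 genes rising (9.45% of all genes rose there). Its Cd74 was 1.06 to 7.75 CPM at 3 months (median 1.75, n = 10), 2.33 to 73.8 at 21 months (median 6.37, n = 11), 4.97 to 14.7 at 26 months (median 9.05, n = 5) and 3.57, 4.14 and 4.78 at 28 months. The ages overlapped, and the 28-month values lay inside the 3-month range. The slope was 0.092 log2 per month for Cd74 (SE 0.020, adjusted p = 0.000417), 0.086 for H2-Aa (SE 0.021, adjusted p = 0.00243), 0.081 for H2-Ab1 (adjusted p = 0.00205), 0.085 for H2-Eb1 (adjusted p = 0.00201) and 0.019 for H2-DMa (SE 0.0037, adjusted p = 0.000104). In males alone the 4 classical calls were lost (Cd74 0.039, adjusted p = 0.0869). The 73.8 CPM belonged to mouse 40, a 21-month female whose cerebellar library was also the highest of 58 in leptomeningeal markers (957 CPM, median 64.9), B cell markers (49.9, median 1.51) and border macrophage markers (108, median 8.40). Without that library the Cd74 slope was 0.065 (SE 0.014, adjusted p = 0.000533).

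The neocortical regions each had 4 rising genes. In motor cortex, where 8.0% of genes rose, Cd74 went from 1.54 to 8.09 CPM (median 4.43) at 3 months to 3.50 to 29.3 (median 8.46) at 21 months and 9.64 to 18.8 (median 12.6) at 26 months, whose 5 mice all lay above the 3-month range. Its slope was 0.055 (SE 0.011, adjusted p = 0.000232), beside 0.060 for H2-Aa, 0.065 for H2-Ab1 and 0.047 for H2-Eb1 (adjusted p = 0.000438, 0.00013 and 0.00144). In visual cortex, where 5.13% rose, Cd74 went from 3.29 to 12.1 CPM (median 8.84) at 3 months to 8.08 to 71.2 (median 19.2) at 21 months, with a slope of 0.058 (SE 0.011, adjusted p = 0.000409). H2-Aa, H2-Ab1 and H2-Eb1 rose there by 0.059, 0.055 and 0.051 (adjusted p = 0.000768, 0.00165 and 0.00122). Mouse 48, a 21-month female, held the highest Cd74 of motor cortex, visual cortex, anterior hippocampus and thalamus, and in both cortical libraries also the highest leptomeningeal and border macrophage sums (615 and 106 CPM in visual cortex). Without those libraries the Cd74 slopes were 0.044 in motor cortex and 0.050 in visual cortex (adjusted p = 0.000596 and 0.000511).

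Hippocampus was dissected in 2 parts. In anterior hippocampus, where 5.76% of genes rose, Cd74 was 0.456 to 4.40 CPM at 3 months (median 2.25) and 0.924 to 20.4 at 21 months (median 5.74), with slopes of 0.076 for Cd74 (SE 0.016, adjusted p = 0.000697), 0.084 for H2-Aa, 0.070 for H2-Ab1 and 0.064 for H2-Eb1 (adjusted p = 0.00249, 0.00234 and 0.00233). Without mouse 5, whose library there resembled choroid plexus, these were 0.066 (adjusted p = 0.00302), 0.068, 0.058 and 0.053, and all 4 passed. In posterior hippocampus, where 4.0% rose, 3 genes passed: Cd74 (slope 0.094, SE 0.030, adjusted p = 0.0448), H2-Aa (0.11, SE 0.035, adjusted p = 0.0413) and H2-Eb1 (0.081, SE 0.024, adjusted p = 0.0319). H2-Ab1 had a slope of 0.093 (adjusted p = 0.0544). The highest library, again of mouse 5 (56.4 CPM of Cd74), was the highest of its region in leptomeningeal and border macrophage markers, and without it none of the classical genes passed (Cd74 0.053, adjusted p = 0.277). DESeq2 called 1 of the 6 there.

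H2-DMa, the subunit of the peptide exchanger, rose in cerebellum and in 4 regions where no classical gene passed. Its medians at 3 and 21 months were 9.23 and 13.0 CPM in medulla, 10.9 and 14.9 in pons, and 11.6 and 16.0 in hypothalamus. The slopes were 0.018 in medulla (SE 0.0033, adjusted p = 4.6e-05), 0.019 in pons (SE 0.0040, adjusted p = 0.000706), 0.019 in hypothalamus (adjusted p = 0.00131) and 0.011 in corpus callosum (SE 0.0036, adjusted p = 0.0268). It was the 1 gene of the 6 called in each of these, where 6.33%, 3.94%, 3.88% and 9.06% of all genes rose. Ciita passed in no region, and its slope was positive in 3 of 14 regions (range -0.023 to 0.0067).

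None of the 6 genes passed in caudate putamen, entorhinal cortex, olfactory bulb, subventricular zone or thalamus, where 7.32%, 0.0758%, 7.31%, 4.5% and 2.32% of all genes rose. Cd74 had slopes of 0.048 (adjusted p = 0.157), 0.052 (adjusted p = 0.424), -0.029 (adjusted p = 0.109), 0.021 (adjusted p = 0.686) and 0.056 (adjusted p = 0.0888) in these regions. Entorhinal cortex without mouse 52 gave 0.056 (adjusted p = 0.474). Olfactory bulb was the only region with a negative Cd74 slope, and without its highest library (159 CPM, mouse 33, 3 months) the slope was 0.0056. At an unadjusted p under 0.05 the edgeR fits gave 2, 4, 1, 0 and 4 of the 6 genes in these regions, and DESeq2 called 1 in thalamus and 0 in the others.

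**Figure D4:**
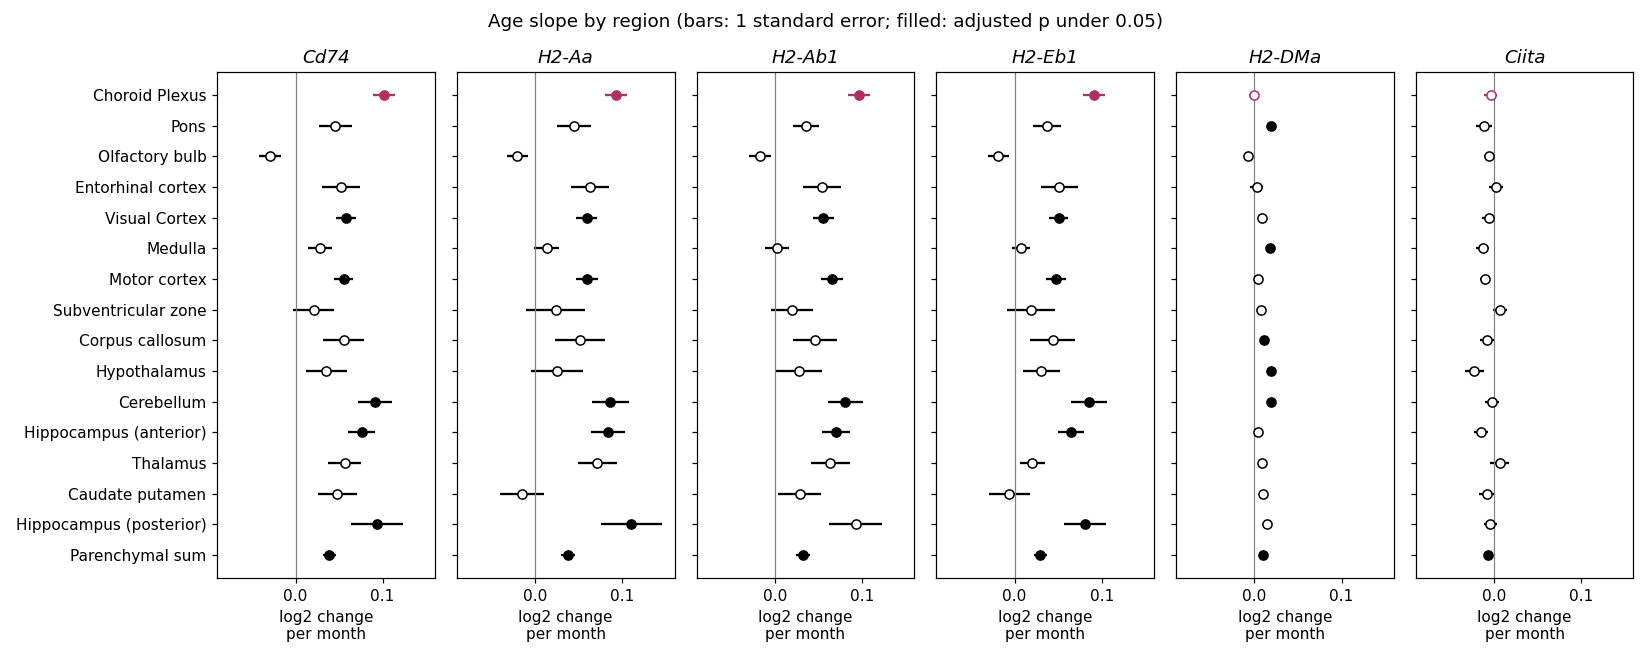
Change with age in log2 per month (points, with bars of 1 SE) for each gene in the 15 regions and in the parenchymal sum, filled where the adjusted p is under 0.05, choroid plexus in red. Classical genes are filled in choroid plexus, cerebellum, neocortex and hippocampus, H2-DMa mainly in hindbrain and hypothalamus at slopes of 0.018 to 0.019, and Ciita only in the sum, with a negative slope.

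The slopes were also fitted beside the level of leptomeningeal fibroblast markers in a library. Of these markers, Igf2 had a median of 66.9 CPM in choroid plexus. In corpus callosum the highest Igf2 was 165 CPM and the highest Dcn 13.6. The part of choroid plexus tissue in the marker level was not tested. With the mean log2 CPM of the leptomeningeal fibroblast markers as a covariate, an analysis added after the first results, 52 of 84 pairs rose and none fell (7.34% of all pairs tested rose), and all 24 pairs called without it were among them. Cd74 then passed in 12 of 14 regions, the exceptions being entorhinal cortex (slope 0.062, adjusted p = 0.0791) and olfactory bulb (-0.024, adjusted p = 0.215). Its slope was 0.055 in pons (SE 0.0080, adjusted p = 4.71e-07) where it had been 0.046 (adjusted p = 0.19), 0.047 in medulla where it had been 0.028, 0.060 in cerebellum where it had been 0.092, and 0.039 in motor cortex where it had been 0.055. H2-DMa was then called in 6 regions and Ciita in none. With the choroid plexus epithelial markers as the covariate, 33 pairs rose (6.17% of all pairs tested), 12 of them not called before, while the 3 of posterior hippocampus were lost.

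In the parenchymal sum, 5 of the 6 genes rose, where 12.4% of all genes rose and 10.9% fell. Cd74 had 3.99, 7.58 and 11.6 CPM (lowest, median, highest) at 3 months, 8.68, 11.8 and 28.6 at 21 months and 9.87, 13.0 and 16.2 at 28 months, with overlap between 3 months and each later age. Its slope was 0.039 log2 per month (SE 0.0076, adjusted p = 7.7e-05, n = 59). H2-Aa, H2-Ab1, H2-Eb1 and H2-DMa rose by 0.037, 0.032, 0.029 and 0.0096 (adjusted p = 0.000371, 0.00194, 0.00178 and 0.00348). Ciita fell by 0.0073 log2 per month (SE 0.0022, adjusted p = 0.00923), with medians of 2.31 CPM at 3 months, 2.14 at 21 months and 1.88 at 26 months. That call was lost when regions had equal weight (adjusted p = 0.0583), in mice 16 to 56 alone (0.104) and at 3 to 21 months alone (0.0607).

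Whether choroid plexus rose faster than the parenchymal sum was tested directly. The slope difference was 0.048 log2 per month for Cd74 (SE 0.015, adjusted p = 0.196), 0.040 for H2-Aa (SE 0.016, adjusted p = 0.296), 0.049 for H2-Ab1 (SE 0.016, adjusted p = 0.199) and 0.047 for H2-Eb1 (SE 0.015, adjusted p = 0.189). None of the 6 genes passed with edgeR or DESeq2, where 0.0806% of all genes had a higher slope in choroid plexus, and 5 had an unadjusted p under 0.05. The 95% interval of the Cd74 difference ran from 0.018 to 0.078 without adjustment for the other genes. At 3 to 21 months alone, 3 genes passed, namely Cd74 (0.074, adjusted p = 0.0192), H2-Ab1 (0.072, adjusted p = 0.0261) and H2-Eb1 (0.072, adjusted p = 0.0187). H2-DMa had a lower slope in choroid plexus by -0.011 (SE 0.0052, adjusted p = 0.346).

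Corpus callosum is the white matter tract among the regions. Against the sum of the other parenchyma it was lower in Cd74 (log2 difference -0.52, SE 0.16, adjusted p = 0.0025), H2-Aa (-0.67), H2-Ab1 (-0.73), H2-Eb1 (-0.63) and Ciita (-0.39), and higher in H2-DMa (0.43, SE 0.032, adjusted p = 5.4e-25). Of all genes tested, 43.8% were lower there and 35.7% higher. The slope difference did not pass for any of the 6 (Cd74 0.024, SE 0.022, adjusted p = 0.733), where 1.23% of genes had a higher slope, and 0 of the 6 had an unadjusted p under 0.05 with edgeR or passed with DESeq2. Median Cd74 was 1.96 CPM at 3 months, 2.10 at 12, 3.81 at 15, 4.41 at 18 and 6.61 at 21. The 4 mice of 26 months gave 6.32, 14.4, 23.8 and 24.2 CPM and the 3 of 28 months 7.24, 12.3 and 13.0. The slope of 0.055 missed the threshold (adjusted p = 0.0903).

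The 9 callosal libraries highest in Cd74 (15.6 to 28.7 CPM) had between 8378 and 16910 CPM of Ttr, the transthyretin of choroid plexus epithelium. The other 48 (0.524 to 14.4 CPM of Cd74) had between 0 and 10684, with a median of 238. Callosal libraries above 15 CPM of Cd74 thus all carried much Ttr, and the part of choroid plexus tissue in their Cd74 was not tested beyond the covariate fit that follows. With the epithelial markers as a covariate, callosal Cd74 rose by 0.071 log2 per month (adjusted p = 0.00014), H2-Aa by 0.060, H2-Ab1 by 0.054 and H2-Eb1 by 0.048 (adjusted p = 0.0035, 0.0020 and 0.013).

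**Figure D5:**
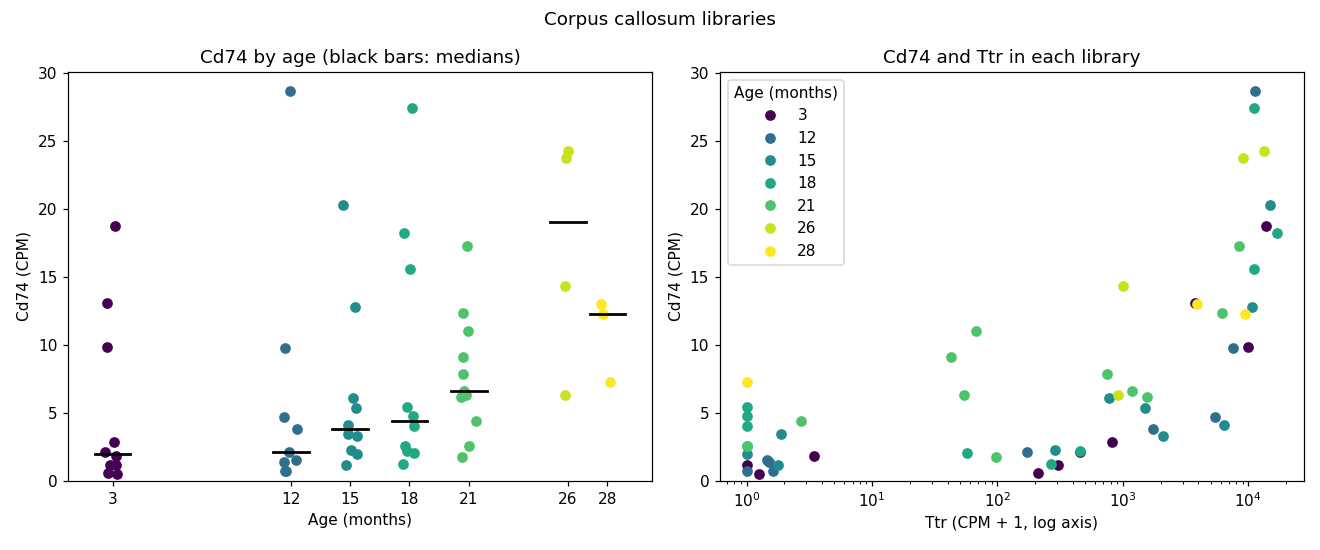
Left, Cd74 CPM in each corpus callosum library against age in months with bars for medians. Right, Cd74 (CPM, linear axis) against Ttr (CPM plus 1, log axis) in the same 57 libraries, coloured by age. The 9 highest in Cd74 all have Ttr above 8378 CPM.

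The sexes differed in choroid plexus, where females had more of the classical genes. Over 3 to 21 months, Cd74 had a lowest, median and highest value of 4.13, 24.5 and 111 CPM in 24 females and 4.91, 12.1 and 59.0 in 25 males, with wide overlap. The male minus female log2 difference, with age as a factor, was -1.05 for Cd74 (SE 0.18, adjusted p = 0.000286), -1.04 for H2-Aa (adjusted p = 0.00053), -0.99 for H2-Ab1 (adjusted p = 0.00137) and -0.89 for H2-Eb1 (adjusted p = 0.00397). These 4 of 6 genes stand against 0.575% of all genes that were lower in males. H2-DMa (-0.06, adjusted p = 0.782) and Ciita (-0.16, adjusted p = 0.593) did not pass. With the epithelial markers as a covariate Cd74 differed by -0.94 (adjusted p = 0.00052). Summed medians in females and males were 6519 and 5482 CPM for epithelial markers, 378 and 339 for microglial, 14.0 and 13.2 for border macrophage, 176 and 157 for leptomeningeal, 4.85 and 3.80 for T cell and 1.28 and 0.933 for B cell markers. Single markers differed by as much as the class II genes, lower in males: Itgax by -1.27 (1 of 4 dendritic cell markers tested, adjusted p = 0.018), the T cell receptor component Cd3e by -1.21 (1 of 3 T cell markers, adjusted p = 0.0076) and Cd22 by -0.93 (the B cell marker tested, adjusted p = 0.0441). Of 8 microglial markers 2 were lower, Gpr34 by -0.44 (adjusted p = 1.23e-06) and Olfml3 by -0.17. The part of these markers in the sex difference was not tested further.

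In the parenchymal sum none of the 6 genes passed the test between the sexes (Cd74 -0.14, SE 0.12, adjusted p = 0.567), where 2.65% of all genes were lower in males; 0 had an unadjusted p under 0.05 with edgeR and 0 passed with DESeq2. The difference between the tissues was itself tested through a tissue by sex term. It was -0.91 for Cd74 (SE 0.21, adjusted p = 0.0356), -0.98 for H2-Aa (SE 0.22, adjusted p = 0.0296), -0.92 for H2-Ab1 (SE 0.22, adjusted p = 0.0383) and -0.82 for H2-Eb1 (SE 0.21, adjusted p = 0.0569), so 3 genes passed, where 0.222% of all genes did in that direction. With depth covariates, with equal weights of the regions or in mice 16 to 56 alone, none passed, and without mouse 3 Cd74 (adjusted p = 0.0447) and H2-Aa (0.0404) did. The slope with age did not differ detectably between the sexes in choroid plexus (Cd74 0.029, SE 0.029), where 0.0% of genes differed, or in the sum (Cd74 -0.047, SE 0.018, adjusted p = 0.145), where 1.68% did. There 1 and 3 of the 6 genes had an unadjusted p under 0.05 with edgeR, and DESeq2 called 0 in both.

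Mouse numbers bear on this comparison. At 3, 15, 18 and 21 months the females were numbered 37 to 56 and the males 16 to 36, so sex and the order of numbers cannot be told apart there, but at 12 months females and males alternate between 1 and 15. The 4 females of 12 months had 10.7, 16.8, 20.6 and 22.8 CPM of Cd74 in choroid plexus and the 4 males 6.48, 6.70, 8.23 and 8.74, without overlap. The ratio of means was 2.35 for Cd74, 2.60 for H2-Aa, 2.27 for H2-Ab1 and 2.23 for H2-Eb1, and the 2-sided exact permutation p was 0.0286 for each, the smallest that 4 against 4 can give. H2-DMa (ratio 0.894, exact permutation p = 0.343) and Ciita (0.950, exact permutation p = 0.8) overlapped. Without mouse 3, a male, the Cd74 ratio was 2.27 and its exact permutation p 0.0571, the smallest that 4 against 3 can give. At the other ages the Cd74 ratio was 2.57 at 3 months, 1.51 at 15, 3.49 at 18 and 1.38 at 21, and the sexes also did not overlap at 18 months.

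Other chains and chaperones of class II moved with the classical genes. Of the 5 listed (H2-DMb1, H2-DMb2, H2-Oa, H2-Ob, H2-Eb2), 3 passed the filter in choroid plexus and all 3 rose with age: H2-DMb1, the beta partner of H2-DMa, by 0.054 log2 per month (adjusted p = 1.33e-05, medians 2.33 CPM at 3 months and 5.27 at 21), and H2-Oa and H2-Ob, the chains of the DO modulator of DM, by 0.067 and 0.065 (adjusted p = 0.000749 and 7.92e-05). The last 2 had few reads: medians at 3 and 21 months were 0.261 and 0.527 CPM for H2-Oa and 0.570 and 1.41 for H2-Ob. In the lowest choroid plexus library, 3 counts are 2.72 CPM. In choroid plexus the alpha chain of DM had no detectable slope while its beta chain rose. Reads of H2-DMa and Brd2 cannot be told apart by strand where their exons overlap, and the part of this in the H2-DMa slope was not tested. In the parenchymal sum 4 of 5 rose, H2-DMb1 by 0.047 (adjusted p = 5.54e-15), with a median of 0.044 over the list and -0.00019 over all genes tested. Their levels were mixed: H2-DMb1, H2-Ob and H2-Oa were higher in choroid plexus than in the sum (log2 differences 0.51, 0.25 and 0.24), and H2-Eb2 and H2-DMb2 lower (-1.22 and -0.42).

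The factors that bind the class II promoter changed little. Of 7 (Rfx5, Rfxank, Rfxap, Nfya, Nfyb, Nfyc, Creb1), Rfx5 rose in choroid plexus by 0.013 log2 per month (adjusted p = 0.00256), from 15.3 to 17.8 CPM between the medians of 3 and 21 months, while Rfxap fell by 0.0096 (adjusted p = 0.000624) and Creb1 fell by 0.0093 (adjusted p = 0.00253). In the sum 0 of 7 rose and 2 fell, Creb1 and Nfya, with either edgeR or DESeq2. Of the interferon gamma pathway, which induces Ciita, 6 of 7 genes were tested in choroid plexus. Of its receptor chains, Ifngr1 rose by 0.014, while Ifngr2 fell by 0.014 (adjusted p = 0.023).

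Genes for peptide supply rose throughout the list. All 6 endosomal genes (Ctss, Ctsl, Ctsb, Ctsd, Lgmn, Ifi30) rose in choroid plexus, with a median of 0.023 log2 per month against -0.00022 over all genes tested. Ctss, the protease that trims Cd74, rose by 0.059 (adjusted p = 3.89e-11), from 54.4 to 126 CPM between 3 and 21 months, and 5 of 6 rose in the sum (Ctss 0.045, adjusted p = 1.77e-21). Of the 8 tested genes for costimulation, turnover and ligands, 4 rose in choroid plexus: Lag3, an inhibitory receptor that binds class II, by 0.067 (adjusted p = 1.48e-13, medians 4.84 and 11.8 CPM), Cd44 by 0.056, the costimulator Cd86 by 0.043 (medians 2.45 and 4.37 CPM) and March8, a ligase that removes class II from the surface, by 0.010 (adjusted p = 0.0492). Among cell type markers, the steepest were Itgax, the integrin CD11c, at 0.25 (adjusted p = 8.52e-12, medians 0.0789 and 2.64 CPM), and Cd22 at 0.19 (adjusted p = 5.57e-11, medians 0.147 and 1.46 CPM). Both rose in the parenchymal sum as well, by 0.20 and 0.14. Of 8 T cell markers, 7 rose in the sum.

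Among mice of the same age and sex, the classical genes varied together. Across the 57 choroid plexus libraries, residuals of log2 CPM after age and sex had a Spearman rho of 0.80 between Cd74 and H2-Aa, and 0.84 between Cd74 and each of H2-Ab1 and H2-Eb1, but 0.013 with H2-DMa and 0.050 with Ciita. In the 14 parenchymal regions rho ran from 0.68 to 0.96, 0.70 to 0.95 and 0.50 to 0.92 for the chains, from -0.39 to 0.68 for H2-DMa and from -0.19 to 0.35 for Ciita. The genes outside the family most like the 4 classical genes, by mean rho over 14074 genes in choroid plexus, were Tapbp (0.61), which bridges class I molecules to the peptide transporter, Plbd1 (0.58), Lamp2 (0.58), a lysosomal membrane protein, Tspo (0.57) and Efs (0.57). By the mean over the 14 parenchymal regions (790 libraries, 12579 genes) they were Serping1 (0.68), the C1 inhibitor, Igf2 (0.66), Slc13a4 (0.65), Pcolce (0.64) and S100a11 (0.63). Igf2 is also 1 of the 6 leptomeningeal markers. These values describe likeness between libraries that share their dissection and depth, and regions of 1 mouse are not independent.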

How the data were processed

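Bulk RNA was sequenced from 15 regions of 59 mice. Per the labels' protocols, RNeasy RNA was turned into Smart-Seq2 cDNA and unstranded Nextera XT libraries. The submitters' processing notes name Trim Galore 0.3.7, STAR 2.5.3a, DESeq2 and GRCm38. The counting program and its annotation are not given in the sources used here. The values used are the deposited counts of reads per gene and library, made by the authors, and all columns carried the name of a labelled sample. CPM is a gene's count per 1e+06 reads of its library; 0.5 was added where a log2 was taken for correlations and plots. The lowest choroid plexus library held 1104224 reads, where 3 counts are 2.72 CPM.

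Models were fitted to the counts in R 4.3.3 with edgeR 4.0.16 (quasi-likelihood test, TMM factors, filterByExpr), 2-sided, with Benjamini-Hochberg adjustment over all genes tested and a threshold of 0.05. Age in months with sex was fitted within each region and in the parenchymal sum. Tissues were compared with tissue, age centred at 15 months, sex and the tissue by age term, and sexes at 3 to 21 months with age as a factor. The same mouse number marks the same animal in every region, which pairs the tissues. Deviations of choroid plexus and parenchymal sum from their group means had a median r of 0.054 within 57 mice over 11958 genes, and 22 were over 0.1. The 6 genes, the lists and the tests were chosen with earlier results of these data known. Named genes are the 6 in every region, up to 4 of each list with the smallest adjusted p, and the 5 most similar genes by residual Spearman correlation (mean of at least 1 CPM). Alternatives were RLE factors, no factors, no filter, DESeq2 1.42.0, depth covariates, equal region weights, libraries of at least 1e+06 reads, males alone, mice 16 to 56, mice of 3 to 21 months, a replicate block, marker covariates and leaving out single mice. Python 3.11.15 with numpy 2.4.6, pandas 2.3.3, scipy 1.17.1 and matplotlib 3.10.9 gave the remaining values. One listed gene is not reported here. The choroid plexus age fit and the tissue comparison were also run on simulated counts. These had the same dispersion for every gene and libraries drawn independently, without pairing by mouse.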

Additional observations from a re-analysis of the deposited data

Results flagged for a closer look

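Among 60 groups (a gene at an age, 4 to 10 libraries) of choroid plexus or corpus callosum, 9 held a value far from the rest. Chance marks about 1 group in 20 at the 95% value used, but the groups are not independent: 4 of the 9 came from 1 choroid plexus library (mouse 39) and 2 from 1 callosal library (mouse 3). Mouse 39, an 18-month female, stood apart in choroid plexus in all 4 classical genes, with 110.8 CPM of Cd74, 45.2 of H2-Aa, 57.9 of H2-Ab1 and 33.1 of H2-Eb1. Its choroid plexus library was also the highest of 57 in B cell markers (7.44 CPM, median 1.25) and leptomeningeal markers (236, median 166), and its entorhinal library held the highest Cd74 of that region, at 146 CPM. At 15 months, mouse 54 had 22.6 CPM of H2-DMa in choroid plexus, above the rest of its age. In corpus callosum, mouse 3 at 12 months had 28.7 CPM of Cd74 and 12.1 of H2-Ab1, with Ttr at 11313 CPM, while the choroid plexus library of that mouse held 512. Mouse 33 at 3 months had 12.6 CPM of H2-Ab1 there, with Ttr at 13841, and mouse 22 at 15 months had 10.5, with Ttr at 14906.

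The sex difference was larger in choroid plexus than in the parenchymal sum for 3 genes, by a tissue by sex term (male minus female, log2): -0.91 for Cd74, -0.98 for H2-Aa and -0.92 for H2-Ab1.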

How the results depend on the processing

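Limits come first from the design: sex, mouse number and age are tied, every mouse over 21 months was male, and 28 months rests on 3 mice. Ciita had few reads per library in choroid plexus (median 1.87 CPM, where 3 counts in the lowest library are 2.72 CPM), which limits what its slope there can show. The covariates for marker lists, the library highest in Cd74, the tissue by sex term and its alternatives, and the fits without single libraries closest to another region were chosen after seeing the data. With 24 gene and region pairs rising with age in single parenchymal regions, 14 rose in males alone and 52 with the leptomeningeal marker covariate. The choroid plexus and parenchymal slopes differed for 0 genes, but for 2 in males alone, 2 in mice 16 to 56 and 3 in mice of 3 to 21 months. Against 3 months, 19 gene and age pairs passed in choroid plexus, 12 in males alone and 10 in mice 16 to 56, which lack 3 of the 6 later ages (11 at the ages they have, with all mice). The sex difference differed between tissues for 3 genes, and for 0 with depth covariates, 0 with equal weights of the regions and 0 in mice 16 to 56, where the estimates moved little (Cd74 at -0.91, -0.88 and -0.88 log2) and the adjusted p rose to between 0.0545 and 0.163. The cause was not tested for any of these, and 3 of the settings held fewer mice.

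Leaving out 1 mouse at a time gave 4 to 4 genes rising in choroid plexus, 5 to 5 in the parenchymal sum, 24 to 25 pairs in single regions (the 28-month mice only), 4 to 5 genes higher in choroid plexus, 0 to 0 with different slopes by tissue or in corpus callosum, and 17 to 20 pairs against 3 months. For sex it gave 4 to 4 genes in choroid plexus, 0 to 0 in the parenchymal sum, 0 to 0 for the slopes in choroid plexus, 0 to 1 for those in the sum (1 without mouse 29 or 49) and 1 to 4 for the tissue by sex term. For that term Cd74 missed the threshold without each of mice 9, 17, 19, 22, 24, 32, 33, 37 and 46, which also left H2-Ab1 above it, as did 12 further mice (3, 13, 21, 23, 25, 27, 28, 31, 35, 53, 55 and 56), and H2-Aa passed in every one of these fits. At 15 months in choroid plexus, H2-Aa missed it without each of 7 mice and H2-Ab1 without each of 10. H2-DMa in corpus callosum missed it without mouse 58, H2-Aa and H2-Eb1 at 28 months without mouse 59, and H2-Eb1 at 26 months without mouse 5. The Ciita slope difference between tissues, not called, turned to -0.0104 log2 per month in males alone and ran from -0.000858 to 0.00417 when 1 mouse was left out, negative without mouse 37 (-0.000845) or 41. With the mouse number as a replicate block, the tissue difference was called for 4 genes, the slope difference for 0, that of corpus callosum for 0 and the tissue by sex term for 3, which changed no call. Of the single-gene values tallied under settings other than leaving out mice, 708 kept direction and side of the threshold, 56 lost the call, 7 gained it and 1 reversed. This tally did not cover every pair of gene and region. It leaves out the pairs gained with marker covariates in single parenchymal regions. These were 28 with the leptomeningeal markers and 12 with the choroid plexus epithelial markers. Posterior hippocampus gave 22 of the 56, and males alone 18.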

Other observations

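Beside the cell type markers, 2 listed genes of the pathway differed between the sexes in choroid plexus at 3 to 21 months. Lower in males were the protease Ctsd (-0.22 log2, adjusted p = 0.031) and the costimulator Cd86 (-0.43, adjusted p = 0.036). The confounding of sex with mouse numbers at all ages but 12 months holds for them too.

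The remaining cell type lists gave these slopes in choroid plexus, in log2 per month. Of 8 dendritic cell markers 5 were tested and 2 rose, Itgax and Cd209a (0.043, adjusted p = 0.0315). Of 8 monocyte and granulocyte markers 2 were tested, and the chemokine receptor Ccr2 rose (0.076, adjusted p = 0.0254). Of 8 endothelial markers 3 rose: Kdr (0.015, adjusted p = 0.0106), Slco1a4 (0.012, adjusted p = 0.0222) and Pecam1 (0.015, adjusted p = 0.0308). Of 6 ependymal and 5 blood markers 0 passed with edgeR or DESeq2, and 0 had an unadjusted p under 0.05, and among 6 neuron markers Rbfox3 alone fell, by 0.013 (adjusted p = 0.0311). Against the parenchymal sum, all 8 epithelial markers were higher in choroid plexus, with a median log2 difference of 3.47 against -0.017 over all genes tested, 6 of 8 T cell markers were higher and 6 of 8 monocyte and granulocyte markers lower. Of all genes tested in this comparison, 35.2% were higher and 40.6% lower. Among the T cell markers, Trac and Lck had choroid plexus medians of 2.03 and 1.58 CPM, and the others at most 0.389 (Cd3e). Cd4, the co-receptor that binds class II, was lower in choroid plexus than in the sum (log2 difference -4.05). Which cells carried Cd4 in these samples was not tested, so this value is no measure of T cells.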
